A study of Homo sapiens with 10 samples.

Results

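The secreted Wnt antagonists DKK1, DKK3, WIF1 and SFRP5 were followed in human SW620 colon cancer cells and in cells of the same line recovered from mouse metastases. All rows of the expression table whose only listed gene was one of these 4 were taken, which gave 39 of the 56949 rows with a listed gene. DKK1 had 7 rows, DKK3 had 17, WIF1 had 10 and SFRP5 had 5. The genes lie on chromosome 10 (DKK1 and SFRP5), chromosome 11 (DKK3) and chromosome 12 (WIF1). A row is a set of probes taken here to cover a part of a gene, since the sources used here do not give the level at which probes were summarised.

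Lung derivatives (3 arrays) and liver derivatives (3 arrays) were SW620 cells that had formed metastases in balb/c nude mice, an immunodeficient strain, and were taken out and grown in culture before RNA extraction. Parental cells (4 arrays) were SW620 cells labelled as parental. The label balb/c stands on the parental samples too, and since SW620 is a human line it was read as the strain of the host mice. SW620 is an established line from a lymph node metastasis of a colorectal adenocarcinoma and carries a truncated APC, so that β-catenin is active in it below the level of the Wnt receptors. No genetic change, drug, animal age or time in culture is given for any group, and all groups shared 1 growth protocol. The labels call the arrays of a group biological replicates without saying whether they are separate metastases or separate cultures, so p-values reflect only how far these samples spread, which may be technical. Expression was measured on an Affymetrix HG1.0ST array, and the values are log2 levels after RMA, a background correction, normalisation and summary of probes.

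Wnt proteins signal by joining a Frizzled receptor to the co-receptors LRP5 or LRP6, which stops the destruction of β-catenin and lets it act with TCF/LEF factors on target genes. Secreted antagonists act before this step. DKK1 binds LRP5 and LRP6, and it is itself a target of β-catenin and TCF, which makes it a feedback inhibitor. SFRP5 carries a Frizzled-like domain and WIF1 a WIF domain, and both bind Wnt proteins outside the cell. DKK3 is the divergent member of the Dickkopf family and is not established as an LRP5 or LRP6 blocker. The intestinal crypt depends on Wnt signalling, and silencing of DKK1, SFRP and WIF1 genes by promoter methylation has been described in colorectal cancer.

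The RefSeq promoters (GRCh38.p14, the 250 bases before the gene start, written 5′ to 3′ on the gene's strand) of DKK1 and SFRP5 are shown because these were the members whose mean level differed between groups. Capitals mark every match, on either strand, to CTTTGA or CTTTGT, the core letters that TCF/LEF factors bind, and to TATAAA, the letters of a TATA box. The DKK1 promoter lies at chr10:52314031-52314280 on the plus strand and the SFRP5 promoter at chr10:97772000-97772249 on the minus strand.
DKK1: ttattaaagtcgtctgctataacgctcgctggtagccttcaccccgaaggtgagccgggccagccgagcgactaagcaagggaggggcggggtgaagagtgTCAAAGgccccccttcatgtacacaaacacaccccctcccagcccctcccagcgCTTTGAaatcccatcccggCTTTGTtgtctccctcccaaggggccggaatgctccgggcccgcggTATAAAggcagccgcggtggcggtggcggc
SFRP5: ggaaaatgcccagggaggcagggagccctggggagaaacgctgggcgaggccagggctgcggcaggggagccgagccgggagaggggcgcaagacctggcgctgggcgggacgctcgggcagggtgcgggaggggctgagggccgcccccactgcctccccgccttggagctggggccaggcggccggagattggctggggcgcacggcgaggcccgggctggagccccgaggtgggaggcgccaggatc
In the DKK1 promoter CTTTGA occurred at 149 bases before the start, on the opposite strand, and at 95 bases before it. CTTTGT occurred 76 and TATAAA 30 bases before the start. Of the 35116 promoters of this length in the RefSeq table, 11.2% held CTTTGA, 0.977% held it 2 or more times, 13.7% held CTTTGT and 10.7% held TATAAA. The SFRP5 and WIF1 promoters (WIF1 at chr12:65121306-65121555, minus strand) held none of these letters in the window. GC content was 62.8% in the DKK1, 76.8% in the SFRP5 and 71.6% in the WIF1 promoter, against a median of 58% over all promoters. The promoters held 18, 21 and 27 CpG dinucleotides in the same order of genes, against a median of 11. A match describes letters and not a bound site, and neither binding nor methylation was measured in these cells.

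1 parental array stood apart from its group. Over all rows with a listed gene, parental arrays 1 to 3 correlated with each other at 0.986 to 0.988 and with parental array 4 at 0.965 to 0.968. Array 4 correlated with the lung arrays at 0.963 to 0.964, above the 0.940 to 0.957 of parental arrays 1 to 3. With the liver arrays, parental arrays 1 to 3 correlated at 0.977 to 0.981 and array 4 at 0.956 to 0.960. The labels name no batch, so the array set used below rests on these same data. The comparisons were therefore also fitted with a term for the array set, which sets the lung arrays against parental array 4 alone and the liver arrays against parental arrays 1 to 3, and those values are given with the gene means of the antagonists and the called pathway genes. Markers were counted by the brightest row of each gene, against parental cells unless stated. As a yardstick, this row was called higher in 9.91% and lower in 3.8% of all 4713 genes for lung derivatives. For liver derivatives these shares were 1.23% and 0.891%, and for lung minus liver 9.7% and 4.05%. Averaging every row of a gene gave 12.9% called higher and 17.3% lower for lung, and 4.33% and 3.5% for liver derivatives. Measured were 8 of 18 listed colon epithelium, 6 of 10 lung epithelium, 13 of 16 hepatocyte, 7 of 13 stroma and 13 of 13 leukocyte markers. Of 8 measured colon epithelium markers, the keratins KRT8 and KRT18 lay between 12.84 and 13.43 on every array, near the highest value in the table (13.99). Against parental cells 1 marker was called, TSPAN8, lower in lung (-0.86, limma adjusted p = 0.00554) and liver derivatives (-1.49, limma adjusted p = 0.000464). By the mean of all rows ELF3 was also called lower in lung (-0.25, limma adjusted p = 0.0328) and liver derivatives (-0.51, limma adjusted p = 0.00149). In lung minus liver 3 were called higher, GPA33 (1.64, limma adjusted p = 0.0346), ELF3 (0.73, limma adjusted p = 0.0405) and TSPAN8 (0.63, limma adjusted p = 0.0259). By the mean of all rows ELF3 (0.26) and TSPAN8 (0.69) were also called higher there, and GPA33 (0.00316) was not called. The mean level of this list was 10.88 to 11.13 on lung arrays, 10.45 to 10.62 on liver arrays and 10.77 to 11.14 on parental arrays, so that the liver arrays lay below all others. Of 6 lung epithelium markers, 3 were called higher in lung derivatives than in parental cells (SFTPA1, AQP5 and PDPN), none of them in the fit with the array set, and the mean level of the list was 9.51 to 9.64 on lung arrays, 9.11 to 9.23 on liver arrays and 8.90 to 9.23 on parental arrays. Of 13 hepatocyte markers none was called in liver derivatives, where the list's mean was 8.47 to 8.50 on liver arrays and 8.39 to 8.52 on parental arrays. Of 7 fibroblast and stroma markers 1 was called in liver derivatives, LUM, and it was lower, with a mean of the list of 9.24 to 9.35 on liver arrays and 9.44 to 9.79 on parental arrays. In lung derivatives 2 hepatocyte markers (APOA1 and CYP2C8) and the stroma marker ACTA2 were called higher and the stroma marker TAGLN lower, and the list means on lung arrays were 8.53 to 8.69 for hepatocyte and 9.42 to 9.59 for stroma markers. By the mean of all rows APOA1 (-0.08), CYP2C8 (0.23) and ACTA2 (0.11) were not called. The hepatocyte marker SLCO1B1 (0.31) and the stroma marker DCN (0.26) were then called higher. The hepatocyte marker RBP4 (-0.70) and the stroma markers LUM (-0.62) and TAGLN (-0.36) were called lower. Of 13 leukocyte markers LYZ alone was called against parental cells by the brightest row, and it was higher in both derivatives. Between the derivatives MS4A1 was called higher in lung than in liver derivatives (1.21, limma adjusted p = 0.0284). So were the hepatocyte marker CYP2C8, the stroma marker LUM and the lung epithelium markers AQP5 and PDPN, while TAGLN was called lower. By the mean of all rows MS4A1, LUM and PDPN stayed called higher, while CYP2C8 (0.32), AQP5 (0.14) and TAGLN (-0.22) were not called. In lung derivatives against parental cells the mean of AQP5 (0.17) was not called either, and that of the lung epithelium marker SFTPA2 (0.45) was called higher. By the mean of all rows 6 leukocyte markers were called higher and 1 lower in lung derivatives, and 2 higher in liver derivatives, LYZ and CD4. The mean of the leukocyte list was 8.64 to 8.69 on lung arrays, 8.47 to 8.51 on liver arrays and 8.19 to 8.59 on parental arrays, so that the lung arrays lay above all others. RMA gives no level of 0 and no detection call, so the absence of a marker cannot be read, and the part of these markers in the results below was not tested. In bulk RNA, a change in the share of cells that express a gene and a change in RNA per cell cannot be told apart.

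DKK1 was higher in both kinds of derivative than in parental cells, SFRP5 was lower in lung derivatives than in either other group, and the gene means of DKK3 and WIF1 were not called in any comparison. The gene mean, the average of all rows of a gene on an array, was 8.49 ± 0.28 for DKK1 in lung derivatives, 8.58 ± 0.16 in liver derivatives and 7.12 ± 0.65 in parental cells (SD, n = 3, 3 and 4). That of SFRP5 was 8.45 ± 0.06 in lung derivatives, 8.81 ± 0.04 in liver derivatives and 8.73 ± 0.15 in parental cells. DKK3 averaged 7.76 ± 0.07 in lung derivatives, 7.78 ± 0.09 in liver derivatives and 7.65 ± 0.10 in parental cells. WIF1 averaged 6.17 ± 0.11 in lung derivatives, 6.07 ± 0.10 in liver derivatives and 6.03 ± 0.16 in parental cells. The level of one gene cannot be set against that of another on this scale, because probes differ in brightness.

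**Figure D1:**
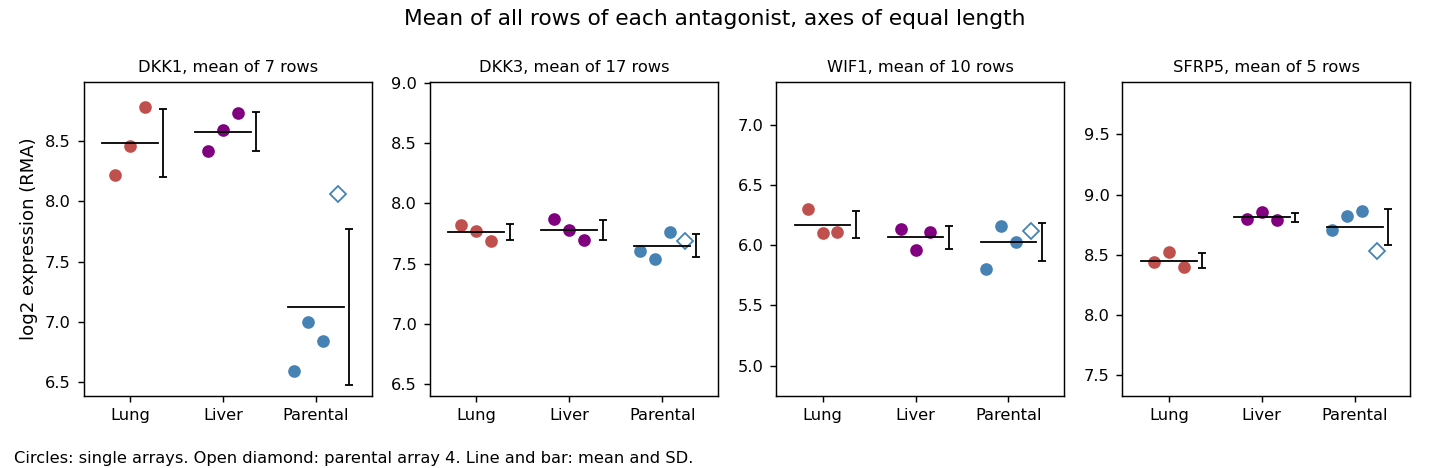
Mean log2 level over all rows of DKK1, DKK3, WIF1 and SFRP5 on each of the 10 arrays, with lung derivatives left, liver derivatives in the middle and parental cells right; points are single arrays, the open diamond is parental array 4, lines and bars are the group mean and SD, and the axes span the same length without starting at 0. For DKK1 every lung and liver array lies above every parental array, with array 4 (8.06) the nearest, and for SFRP5 the 3 lung arrays lie below all others.

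The DKK1 gene mean was 8.22, 8.46 and 8.78 on the lung arrays, 8.41, 8.59 and 8.73 on the liver arrays, and 6.60, 7.00, 6.84 and 8.06 on the parental arrays. Every derivative array was above every parental array, and parental array 4 stood 1.25 above the mean of the other parental arrays. In limma's fit over 4713 gene means with Benjamini-Hochberg adjustment, DKK1 was 2.57-fold higher in lung derivatives than in parental cells (log2 change 1.36, SE 0.28, 95% interval 0.74 to 1.98, adjusted p = 0.00627). In liver derivatives it was 2.74-fold higher (log2 change 1.46, SE 0.28, interval 0.84 to 2.08, adjusted p = 0.00744). Calls were common in the lung comparison, where 12.9% of gene means were called higher, against 4.33% in the liver comparison. Every array lay above every parental array in 12.8% of gene means for lung derivatives and 11.1% for liver derivatives.

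Parental array 4 bears on the size of the lung value. Without it the change was 1.68 in lung derivatives (adjusted p = 4.86e-05) and 1.77 in liver derivatives (adjusted p = 3.95e-05). Against array 4 alone, the fit with the array set, the lung change was 0.43 and was not called (adjusted p = 0.248), while all 3 lung arrays still lay above array 4. The liver change with this term was 1.77. Both comparisons share the parental arrays, so they are not independent of each other.

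The lung and liver derivatives were not shown to differ in DKK1. The gene mean in lung derivatives minus that in liver derivatives was -0.09 (SE 0.30, adjusted p = 0.852), with a 95% interval of -0.75 to 0.57 that leaves room for a difference of 0.57 log2 units upward and of 0.75 downward. In the fit with the array set, which sets the lung change against array 4 beside the liver change against parental arrays 1 to 3, it was -1.34 (adjusted p = 0.112), outside that interval and not called. None of the 7 rows was called between them, where 12.6% of all rows were, and 0 had an unadjusted p under 0.05 in limma, while 1 was called without parental array 4.

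The rows of DKK1 did not all move alike. Row 7927636, the brightest, read 10.44, 10.52 and 11.12 on lung arrays, 10.54, 10.75 and 10.89 on liver arrays, and 7.51, 8.33, 8.36 and 9.74 on parental arrays. Row 7927635 read 8.21, 8.56 and 8.96 on lung arrays, 8.61, 8.94 and 9.18 on liver arrays, and 5.68, 6.13, 5.27 and 7.90 on parental arrays. In both rows the derivatives did not overlap with parental cells, and array 4 was the highest parental array. Row 7927633 read 7.57, 8.20 and 8.49 on lung arrays, 8.50, 8.52 and 8.73 on liver arrays, and 6.53, 6.79, 6.61 and 7.57 on parental arrays. Row 7927637 read 8.005, 8.01 and 9.31 on lung arrays, 7.79, 8.59 and 8.59 on liver arrays, and 5.09, 5.72, 5.85 and 8.21 on parental arrays. In row 7927633 the lowest lung array met array 4, and in row 7927637 array 4 lay within the range of both derivatives.

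The dimmest DKK1 row, 7927638, read 6.63, 6.45 and 6.09 on lung arrays, 5.84, 5.87 and 5.90 on liver arrays, and 4.44, 4.84, 4.58 and 5.89 on parental arrays. Its lung arrays were all above array 4 and its liver arrays lay level with it. Row 7927634 read 8.07, 8.78 and 8.58 on lung arrays, 8.74, 8.89 and 8.96 on liver arrays, and 8.09, 8.33, 8.26 and 7.92 on parental arrays, so that only the liver arrays cleared the parental range. Row 7927632 ran the other way by a small amount, with 8.60, 8.71 and 8.92 on lung arrays, 8.88, 8.56 and 8.88 on liver arrays, and 8.84, 8.82, 8.96 and 9.19 on parental arrays. Over the 10 arrays the 21 pairs of DKK1 rows correlated at -0.39 to 0.97 with a median of 0.76, against medians of 0.01 among DKK3 rows, -0.01 among WIF1 rows and -0.30 among SFRP5 rows. These are descriptions over arrays that share groups.

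In the row fit, adjusted over all 56949 rows, 4 of 7 DKK1 rows were called higher in lung derivatives, where 5.15% of all rows were, and 3 of 7 in liver derivatives, where 1.15% of all rows were. The lung changes were 2.33 in row 7927635 (adjusted p = 0.0257), 2.21 in row 7927636 (adjusted p = 0.0159), 1.45 in row 7927638 (adjusted p = 0.0208) and 1.21 in row 7927633 (adjusted p = 0.0263). The liver changes were 2.67 in row 7927635 (adjusted p = 0.0360), 2.24 in row 7927636 (adjusted p = 0.0314) and 1.71 in row 7927633 (adjusted p = 0.0135). The counts depended on the arrays in the fit. With only the 2 groups compared in it, 0 DKK1 rows were called in lung and 2 in liver derivatives. In the lung comparison 5 rows were called without parental array 4, 2 without lung array 1 or 3, and 1 without lung array 2 or parental array 1, 2 or 3. In the liver comparison 5 were called without parental array 4, 2 without lung array 2, 1 without parental array 1, 2 or 3, and none without any 1 of the liver arrays. Of all rows, 552, 527 and 544 were called there without liver array 1, 2 and 3, against 1252 in the full fit. When the array set was a term, 0 DKK1 rows were called in lung derivatives (1.12% of all rows were), with changes between -0.44 and 0.95, and 5 in liver derivatives (2.57% of all rows were).

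**Figure D2:**
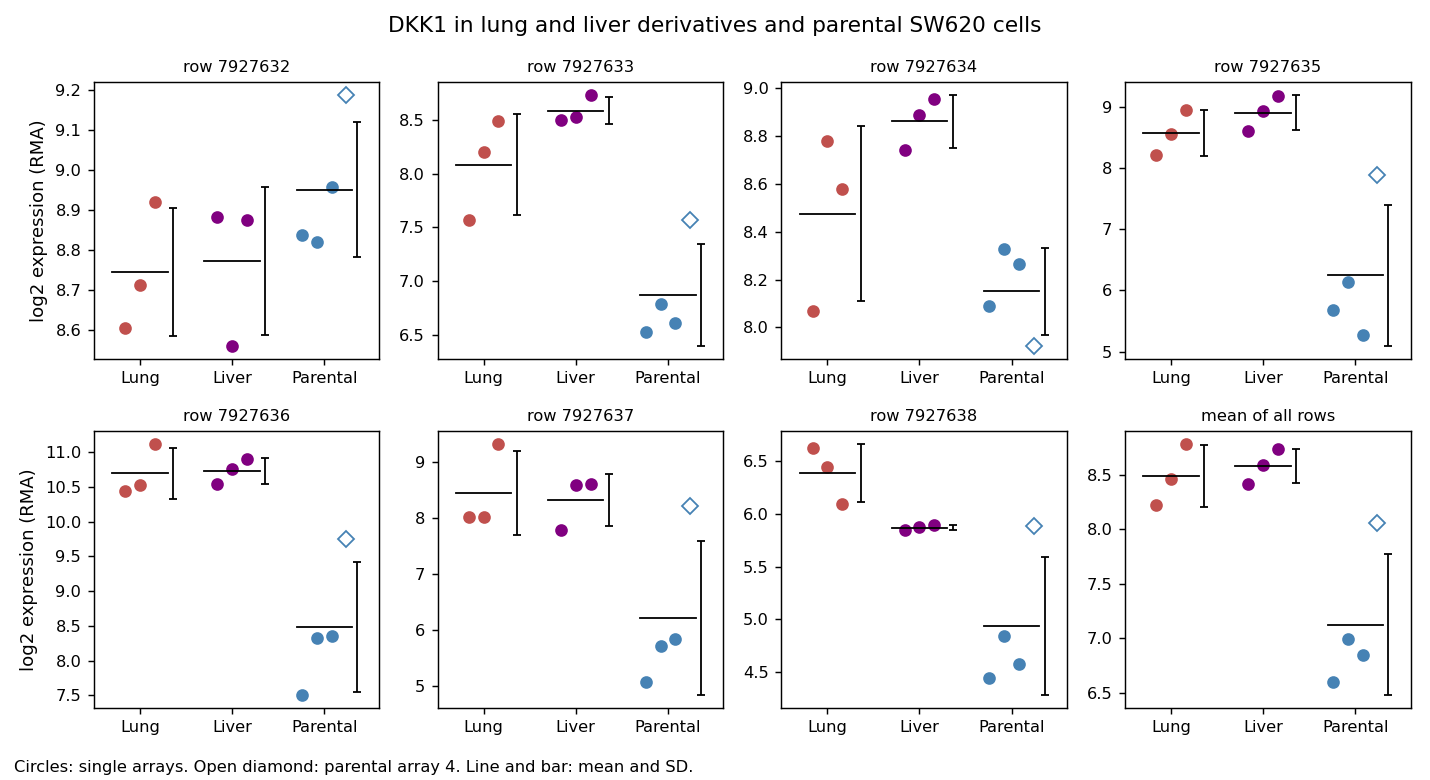
Log2 level of the 7 DKK1 rows and of their mean on each of the 10 arrays, one panel per row, on axes that do not start at 0, with lung derivatives left, liver derivatives in the middle and parental cells right; points are single arrays, the open diamond is parental array 4, lines and bars are the group mean and SD. Array 4 lies above the other parental arrays in 6 rows and below them in 1, and in row 7927636 the derivatives lie between 10.44 and 11.12 against 7.51 to 9.74 in parental cells.

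SFRP5, which captures Wnt proteins through its Frizzled-like domain, was lower in lung derivatives. Its gene mean was 8.44, 8.52 and 8.40 on lung arrays, 8.80, 8.85 and 8.79 on liver arrays, and 8.71, 8.83, 8.87 and 8.54 on parental arrays. All lung arrays lay below all others, and parental array 4 was the lowest parental array. The lung level was 1.21-fold below that of parental cells (log2 change -0.28, SE 0.08, 95% interval -0.46 to -0.10, limma adjusted p = 0.0245), in a comparison in which 17.3% of gene means were called lower and 19.5% had every lung array below every parental array. It was 1.28-fold below that of liver derivatives (log2 change -0.36, SE 0.09, interval -0.55 to -0.17, adjusted p = 0.0211), where 11.9% of gene means were called lower and 27.2% did not overlap downward. Liver derivatives and parental cells were not shown to differ (log2 change 0.08, interval -0.10 to 0.26, adjusted p = 0.692).

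These SFRP5 calls were not stable. Without parental array 4 the change against parental cells was -0.35 (adjusted p = 0.00216), and against array 4 alone it was -0.08 (adjusted p = 0.594). The call against parental cells was lost without parental array 1, 2 or 3 or without lung array 1 or 3 (adjusted p up to 0.0722), and the call against liver derivatives without any 1 liver array or without lung array 1 or 3 (adjusted p up to 0.0824). In the fit with the array set, the lung minus liver change was -0.09 (adjusted p = 0.798).

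Of the 5 SFRP5 rows, 2 were called lower in lung derivatives than in parental cells, where 7.99% of all rows were, and the same 2 rows were called lower than in liver derivatives, where 7.61% were. Row 7935530 read 8.61, 9.29 and 8.91 on lung arrays, 9.97, 9.69 and 9.83 on liver arrays, and 9.54, 10.20, 9.93 and 9.35 on parental arrays. Row 7935531 read 7.92, 8.07 and 7.60 on lung arrays, 8.47, 8.53 and 8.55 on liver arrays, and 8.55, 8.68, 8.55 and 8.25 on parental arrays. In both rows every lung array lay below every other array, and array 4 was the lowest of the parental arrays. Against parental cells the changes were -0.82 in row 7935530 (SE 0.22, adjusted p = 0.0427) and -0.65 in row 7935531 (SE 0.14, adjusted p = 0.0221). Against liver derivatives they were -0.89 (SE 0.24, adjusted p = 0.0422) and -0.65 (SE 0.15, adjusted p = 0.0296).

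The other SFRP5 rows were not called. Row 7935532 read 8.77, 8.85 and 8.41 on lung arrays, 9.22, 9.08 and 9.11 on liver arrays, and 9.05, 9.07, 9.17 and 8.66 on parental arrays, so that only array 4 overlapped with the lung range. Row 7935533 read 9.19, 9.35 and 9.68 on lung arrays against 9.20 to 9.30 on liver arrays and 9.10 to 9.38 on parental arrays. Row 7935529 ranged from 7.04 to 7.72 on lung arrays, 7.02 to 7.77 on liver arrays and 7.06 to 7.30 on parental arrays, and the groups overlapped. Leaving out 1 array at a time gave 0 to 3 called SFRP5 rows against parental cells, with 0 without lung array 3 or parental array 1, 2 or 3, and 1 without lung array 1 or any 1 liver array. Against liver derivatives it gave 0 without any 1 liver array or lung array 1 or 3, 1 without parental array 1 or 3, and 3 without parental array 4. Of all rows, 462, 0 and 0 were called in that comparison without liver array 1, 2 and 3, so that loss was not particular to SFRP5.

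The DKK3 gene mean was 7.82, 7.77 and 7.69 on lung arrays, 7.87, 7.78 and 7.69 on liver arrays, and 7.60, 7.54, 7.76 and 7.69 on parental arrays. The groups overlapped. The change was 0.11 in lung derivatives (interval -0.05 to 0.27, adjusted p = 0.258) and 0.13 in liver derivatives (interval -0.03 to 0.29, adjusted p = 0.393), and between lung and liver derivatives it was -0.02 (interval -0.19 to 0.15, adjusted p = 0.882). In the fit with the array set these changes were 0.07, 0.14 and -0.0701, and none was called. Of the 17 rows, 7 had a mean below 6.98, the lower quartile of all rows.

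The DKK3 rows fell into 2 runs of row numbers. A run of 14 rows (7946662 to 7946675) lay among rows of 55 genes on the minus strand and 1 on the plus strand within 500 row numbers. A run of 3 rows (7938482 to 7938484) lay between the rows of USP47 and MICAL2, among 60 genes on the plus strand and 0 on the minus strand. The strand of DKK3 is not in the tables used here, so which RNA the 3 rows measure was not settled. The gene mean over the 14 rows alone, an alternative chosen after the data had been seen, gave no call in any comparison.

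Of the 17 DKK3 rows 2 were called in lung derivatives against parental cells, where 13.1% of all rows were, 1 in each direction and both from the run of 3. Row 7938482 read 6.55, 6.72 and 6.08 on lung arrays, 5.18, 5.01 and 5.19 on liver arrays, and 4.64, 5.33, 5.37 and 5.63 on parental arrays. Row 7938483 read 5.85, 6.35 and 6.28 on lung arrays, 7.09, 6.85 and 7.07 on liver arrays, and 6.86, 6.70, 6.95 and 6.69 on parental arrays. The lung arrays were all above the others in the first of these rows and all below them in the second, in 2 rows whose numbers follow each other. The changes against parental cells were 1.20 in row 7938482 (SE 0.23, limma adjusted p = 0.0154) and -0.64 in row 7938483 (SE 0.14, adjusted p = 0.0234). Leaving out 1 array gave 1 called DKK3 row without lung array 1 or parental array 1, 2 or 3, and 4 without parental array 4. With only the 2 groups compared, with the dimmest 25% of rows left out and in the fit with the array set, 0 were called, and both called rows lay below the lower quartile. In liver derivatives against parental cells, where 2.2% of all rows were called, 0 of 17 DKK3, 0 of 10 WIF1 and 0 of 5 SFRP5 rows were called, and 2, 1 and 0 of them had an unadjusted p under 0.05 in limma.

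Between lung and liver derivatives 3 DKK3 rows were called, where 12.6% of all rows were. The changes were 1.32 in row 7938482 (SE 0.25, adjusted p = 0.0222), -0.84 in row 7938483 (SE 0.15, adjusted p = 0.0214) and -0.59 in row 7946672 (SE 0.16, adjusted p = 0.0471). Row 7946672, the brightest DKK3 row, read 12.18, 12.30 and 12.16 on lung arrays, 12.82, 12.83 and 12.75 on liver arrays, and 12.75, 12.46, 12.79 and 12.15 on parental arrays. Its lung arrays lay below all liver arrays and below parental arrays 1 to 3, and array 4 lay with the lung arrays. No DKK3 row was called without any 1 liver array, 1 was called without lung array 1, 4 were called without parental array 4, and 0 in the fit with the array set, which called 0.0632% of all rows.

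**Figure D3:**
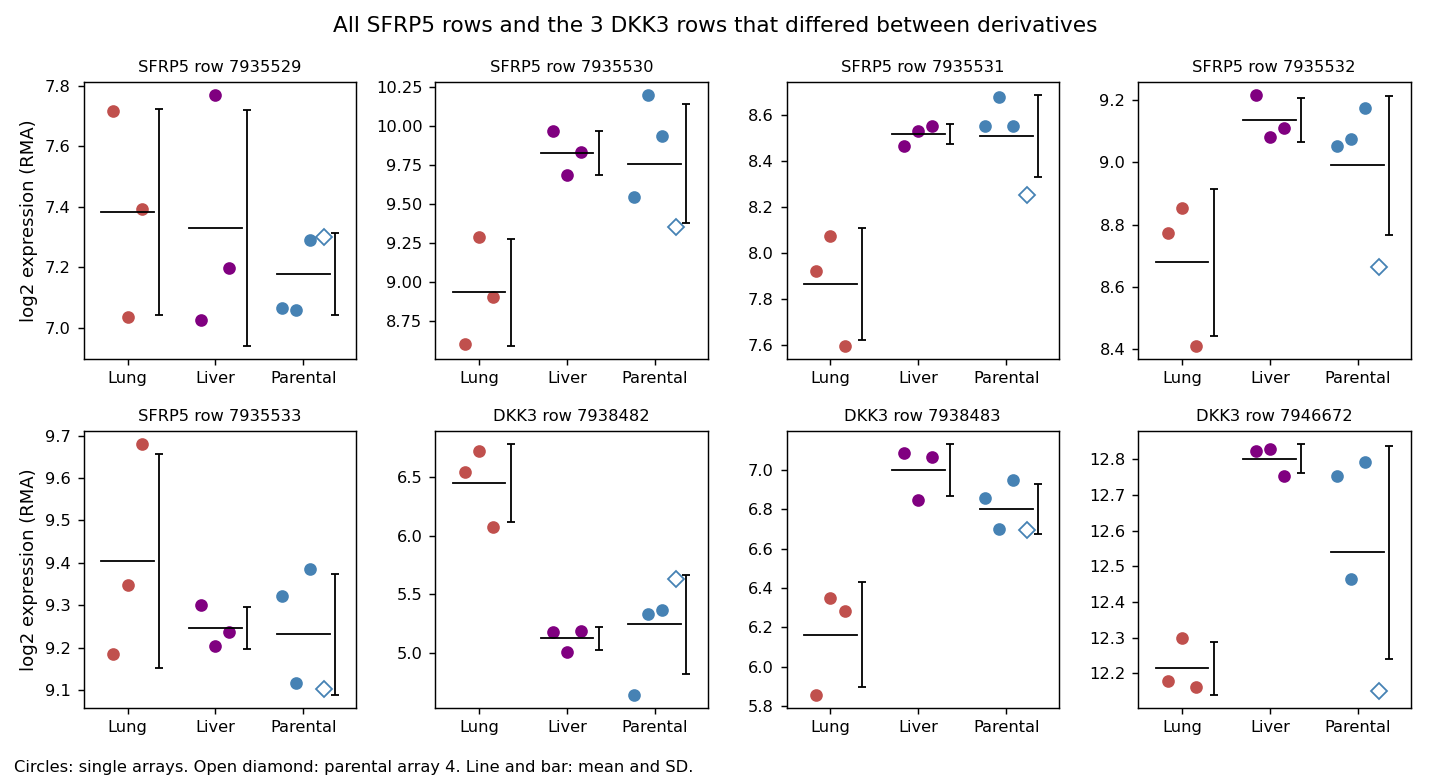
Log2 level of the 5 SFRP5 rows and of the 3 DKK3 rows called between derivatives, one panel per row, with lung derivatives left, liver derivatives in the middle and parental cells right; points are single arrays, the open diamond is parental array 4, lines and bars are the group mean and SD. The axes do not start at 0 and differ between panels. Lung arrays lie lowest in SFRP5 rows 7935530 and 7935531 and highest in DKK3 row 7938482.

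WIF1, which sequesters Wnt proteins, read 6.30, 6.10 and 6.11 as a gene mean on lung arrays, 6.14, 5.96 and 6.11 on liver arrays, and 5.80, 6.16, 6.02 and 6.12 on parental arrays. The groups overlapped. The change was 0.15 in lung derivatives (interval -0.06 to 0.35, adjusted p = 0.257) and 0.04 in liver derivatives (interval -0.17 to 0.25, adjusted p = 0.881), and between lung and liver derivatives it was 0.10 (interval -0.12 to 0.32, adjusted p = 0.471). In the fit with the array set these changes were 0.0551, 0.0710 and -0.0159, and none was called. Of the 10 WIF1 rows, 8 had a mean below the lower quartile of all rows, where signal over background limits what can be seen.

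Of the 10 WIF1 rows 1 was called, and only between lung and liver derivatives, where 12.6% of all rows were. Row 7964727 read 5.70, 5.94 and 4.42 on lung arrays, 3.83, 4.07 and 3.84 on liver arrays, and 3.55, 4.29, 4.02 and 4.83 on parental arrays. Its lung arrays lay above the liver arrays (log2 change 1.44, SE 0.41, limma adjusted p = 0.0490) and overlapped with the parental arrays. The call was lost without any 1 liver array, lung array 1 or 2, or parental array 2 or 3, and in the fit with the array set. In lung minus liver 462, 0 and 0 of all rows were called without liver array 1, 2 and 3, so those losses were not particular to this row. Against parental cells 0 of 10 WIF1 rows were called in lung derivatives, where 13.1% of all rows were. In limma 2 WIF1 rows had an unadjusted p under 0.05 there, and 1 was called without lung array 3 or parental array 4. The changes of its 10 rows ran between -0.58 and 1.18 in lung derivatives and between -0.48 and 0.54 in liver derivatives.

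**Figure D4:**
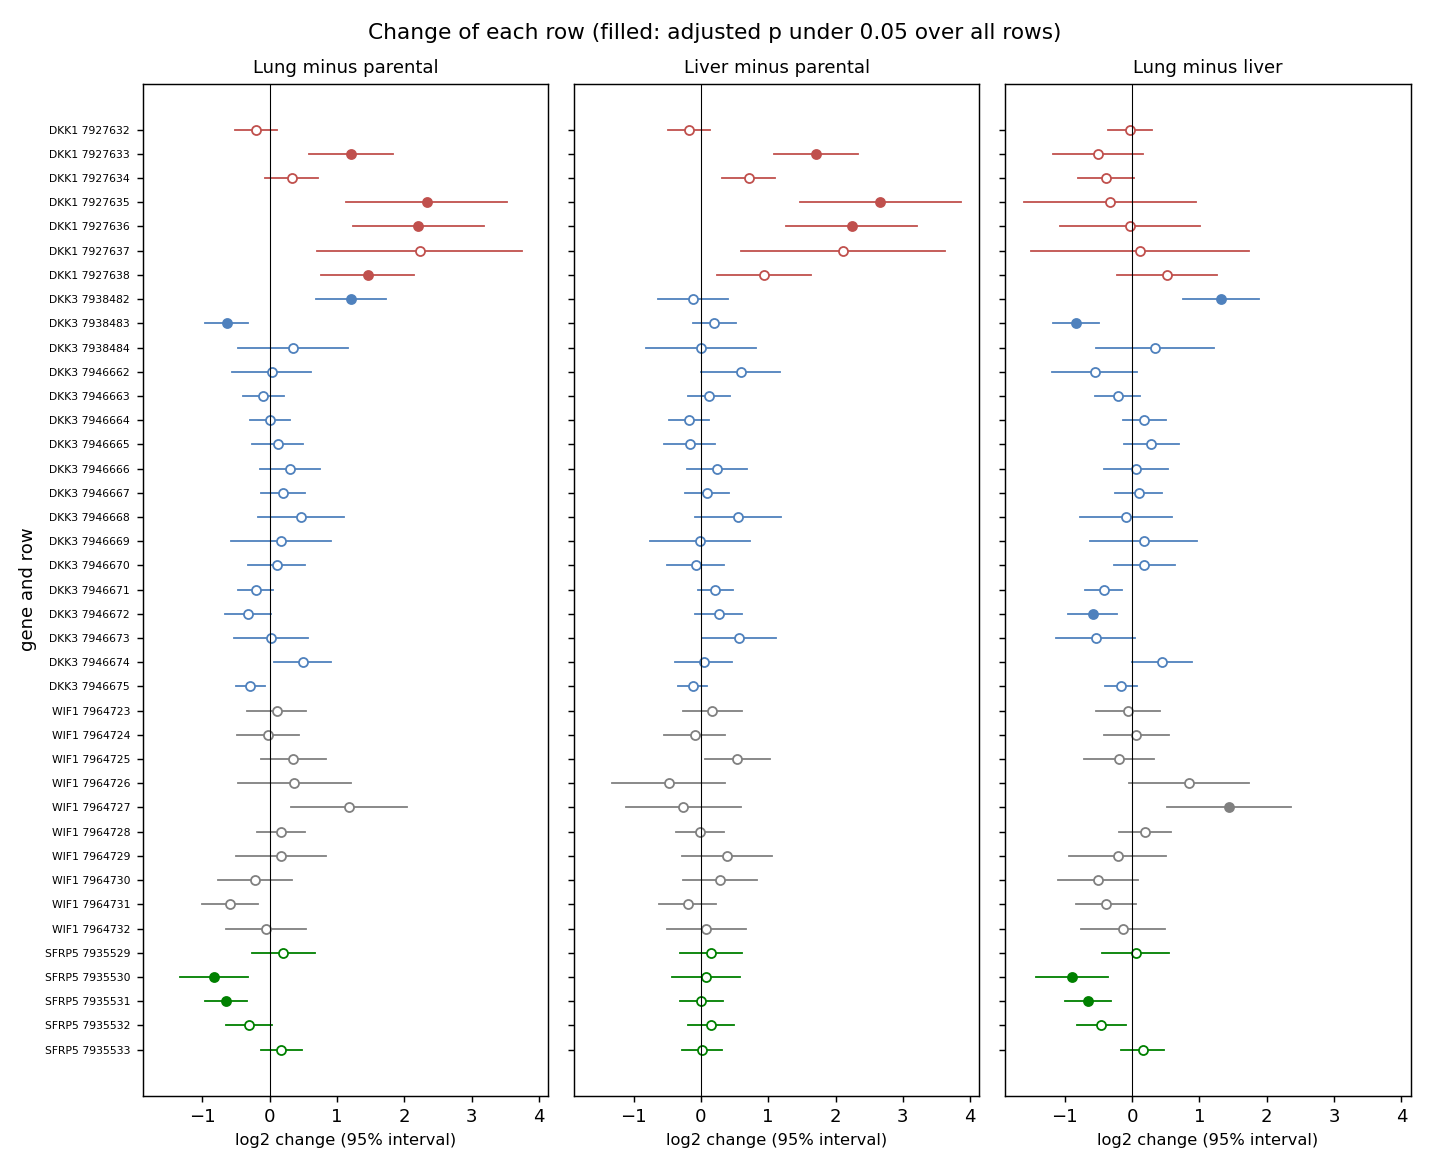
Log2 change of each of the 39 rows of DKK1, DKK3, WIF1 and SFRP5 in lung minus parental, liver minus parental and lung minus liver comparisons; each point is a row, bars are 95% intervals, filled points were called at an adjusted p under 0.05, and colours mark the gene. DKK1 rows reach 2.33 in lung and 2.67 in liver derivatives, and the called SFRP5 rows lie at -0.65 and below.

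The genes whose mean levels over the 10 arrays followed those of each antagonist most closely were taken from the 4153 other genes with at least 3 rows. For DKK1 they were SLC4A8, a bicarbonate transporter (Pearson r 0.98), LPXN, the adhesion adaptor leupaxin (0.97), SLC2A3, the glucose transporter GLUT3 (0.95), the cytokine gene IL10 (0.95) and the adhesion molecule gene MPZL2 (0.94). LPXN averaged 9.36 in lung derivatives, 9.46 in liver derivatives and 8.30 in parental cells, with 8.73 on array 4, the order seen for DKK1. The DKK1 row that varied most, 7927635, was nearest to SLC4A8 and LPXN (both 0.98) and IL10 (0.96).

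For SFRP5 the nearest genes were PABPC4, a poly(A)-binding protein (0.98), SFXN2, a mitochondrial carrier (0.98), MLEC, an endoplasmic reticulum lectin (0.97), TAF5L (0.97) and PHRF1 (0.96), and for its row 7935530 they were EMC1 (0.97), ZNF687 (0.96) and MTA2 (0.96). PABPC4 averaged 10.09 in lung derivatives, 10.49 in liver derivatives and 10.42 in parental cells, with 10.20 on array 4. For DKK3 they were NECTIN4 (0.93), MYOZ1 (0.93), TTLL10 (0.91), S100A9 (0.90) and SYNPO2L (0.88), and for its row 7938482 CLEC1B (0.96), ACSS3 (0.95) and C11orf24 (0.95). For WIF1 they were IFNG (0.90), CLCA3P (0.89), TMEM26 (0.85), SLC6A9 (0.85) and ASB17 (0.84), and for its row 7964727 ADGRL4 (0.97), LIPJ (0.96) and SH2D1B (0.96). All of these genes named for WIF1 except SLC6A9 averaged below 6.98, the lower quartile of all rows, in every group. IFNG, for example, averaged 5.66 in lung derivatives, 5.28 in liver derivatives and 5.24 in parental cells. The 10 points of each correlation share 3 groups and the standing of array 4, and the nearest of so many genes are high by selection.

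Of the rest of the Wnt pathway 39 genes were measured, all on chromosomes 1, 10, 11 and 12. Many listed genes had no row of their own, among them APC, CTNNB1, AXIN2 and MYC. Measured were 10 of 21 genes listed for ligands and their secretion, 10 of 24 for receptors, 10 of 34 intracellular genes and 10 of 32 targets. Shares of all genes refer to the 4713 genes with such a row, which are not the whole genome. The measured markers and the nearest genes named above also lie on chromosomes 1, 10, 11 and 12. Why other genes had no row was not tested. Of 16 other secreted or extracellular inhibitors none had a row with a listed gene, and they are not analysed here. By the brightest row of each gene, 3 of the 39 were called higher and 7 lower in lung derivatives than in parental cells, where 9.91% of all genes were called higher and 3.8% lower. In liver derivatives none was called higher and 1 lower, where 1.23% were called higher and 0.891% lower. Between lung and liver derivatives 2 were higher and 3 lower, where 9.7% and 4.05% were.

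None of 10 measured genes for Wnt ligands and their secretion was called in lung or liver derivatives against parental cells. Their median change was 0.03 in lung and 0.20 in liver derivatives, against 0.07 and 0.01 over all genes. Between the derivatives the gene mean of the ligand gene WNT10B was not called (-0.16, limma adjusted p = 0.369). Its brightest row, the 1 of 11 rows called, was lower in lung derivatives. It read 8.94, 9.14 and 8.93 on lung arrays against 9.63, 9.67 and 9.44 on liver arrays (log2 change -0.58, limma adjusted p = 0.0339). In the fit with the array set this change was -0.20 and not called.

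Of 10 receptor genes, 2 were called higher and 2 lower in lung derivatives than in parental cells, with a median of -0.01. LGR5, an R-spondin receptor and crypt stem cell marker, read 9.30, 9.29 and 9.26 on lung arrays, 10.05, 10.26 and 10.26 on liver arrays, and 10.76, 11.27, 11.19 and 10.29 on parental arrays. Its lung arrays lay below all others, and its change was -1.59 against parental cells (SE 0.21, adjusted p = 0.00412), with 17 of 18 rows called lower, and -0.91 against liver derivatives (adjusted p = 0.0364). The related receptor gene LGR6 was lower in lung derivatives (-0.66, adjusted p = 0.0133), and LGR4 was higher (0.80, adjusted p = 0.0297) by 1 of its 21 rows, with a change of 0.14 in its gene mean. ROR1, a receptor kinase for Wnt proteins, was higher by its brightest row (1.26, adjusted p = 0.0378) while 9 of its 12 rows were called lower and its gene mean changed by -1.42. The brightest rows of ROR1 (1.68, adjusted p = 0.0253) and LGR4 (0.98, adjusted p = 0.0255) were also higher in lung than in liver derivatives, with changes of -0.42 and 0.51 in the gene means. Against array 4 alone the lung changes were -1.01 in LGR5, -0.93 in LGR6, 0.27 in LGR4 and 0.19 in ROR1. In the fit with the array set the lung minus liver changes were -0.13 in LGR5, 0.28 in LGR4 and 0.27 in ROR1, and none was called. LRP5, a co-receptor that DKK1 binds, was at 12.28 ± 0.04 in lung derivatives, 12.18 ± 0.05 in liver derivatives and 12.18 ± 0.09 in parental cells, and its brightest row was not called.

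Of 10 intracellular genes, 1 was higher and 2 lower in lung derivatives than in parental cells. CTNNBIP1, which keeps β-catenin from TCF, was higher (0.39, limma adjusted p = 0.0277), and the β-catenin co-activator genes BCL9 (-0.44, adjusted p = 0.0301) and PYGO2 (-0.30, adjusted p = 0.0477) were lower. BCL9L was lower in lung than in liver derivatives by its brightest row (-0.70, limma adjusted p = 0.0415), with 2 of 9 rows called lower. Its gene mean changed by -0.31 there and was not called (limma adjusted p = 0.0595). None of these 4 was called in the fit with the array set, where the lung changes were 0.47 in CTNNBIP1, -0.29 in BCL9 and -0.21 in PYGO2 and the lung minus liver change in BCL9L was -0.22. The medians of this list were 0.01 in lung and 0.15 in liver derivatives.

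Of 10 measured Wnt target genes, by the brightest row none was called higher and 4 were called lower in lung derivatives, namely JUN, CD44, EPHB2 and LGR5, which also stands among the receptors, with a median of -0.23 against 0.07 over all genes. JUN, a subunit of the transcription factor AP-1, read 9.24, 9.27 and 9.08 on lung arrays, 9.43, 9.43 and 9.52 on liver arrays, and 10.42, 10.40, 10.26 and 10.02 on parental arrays. Every derivative array lay below every parental array, and JUN was the one pathway gene called in both derivatives by its brightest row (-1.08, adjusted p = 0.00191 in lung and -0.82, adjusted p = 0.00751 in liver derivatives). CD44, a hyaluronan receptor, changed by -1.17 in lung derivatives (adjusted p = 0.0150, 14 of 23 rows lower), and EPHB2, an ephrin receptor, by -0.56 (adjusted p = 0.0150, 16 of 23 rows lower). Against array 4 alone the lung changes were -0.82 in JUN, -1.35 in CD44 and -0.47 in EPHB2. DKK1, itself a known Wnt target and not among these 10, was higher in the same lung arrays.

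The pathway counts depended on how a gene was summarised. By gene means, 1 of the 39 was called higher and 9 lower in liver derivatives, where 4.33% of gene means were higher and 3.5% lower, and 3 were higher and 11 lower in lung derivatives, where 12.9% and 17.3% were. The genes called by gene means are named here after their values were seen. In liver derivatives the cyclin gene CCND2 was higher (2.23, 7 of 10 rows called). The 9 lower ones were ROR1 (-0.998, 8 of 12 rows), LGR5 (-0.81, 8 of 18 rows), PLAU (-0.80), CD44 (-0.67), EPHB2 (-0.57, 11 of 23 rows), JUN (-0.48), LGR6 (-0.42), BCL9 (-0.38) and LGR4 (-0.37). In lung derivatives CCND2 (1.33, 6 of 10 rows) and the matrix protease gene MMP7 (0.94, 2 of 6 rows), both Wnt targets, and CTNNBIP1 (0.30) were higher. The 11 lower ones were ROR1, LGR5, LGR6, BCL9, PYGO2, CD44, EPHB2, JUN, WNT11 (-0.54), PLAU (-0.36) and RSPO1 (-0.31). Among the 10 targets, gene means gave 2 higher and 5 lower in lung derivatives. The brightest row of CCND2 changed by 0.08 in lung and 0.33 in liver derivatives, and that of MMP7 by 0.69 in lung derivatives, and neither was called.

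**Figure D5:**
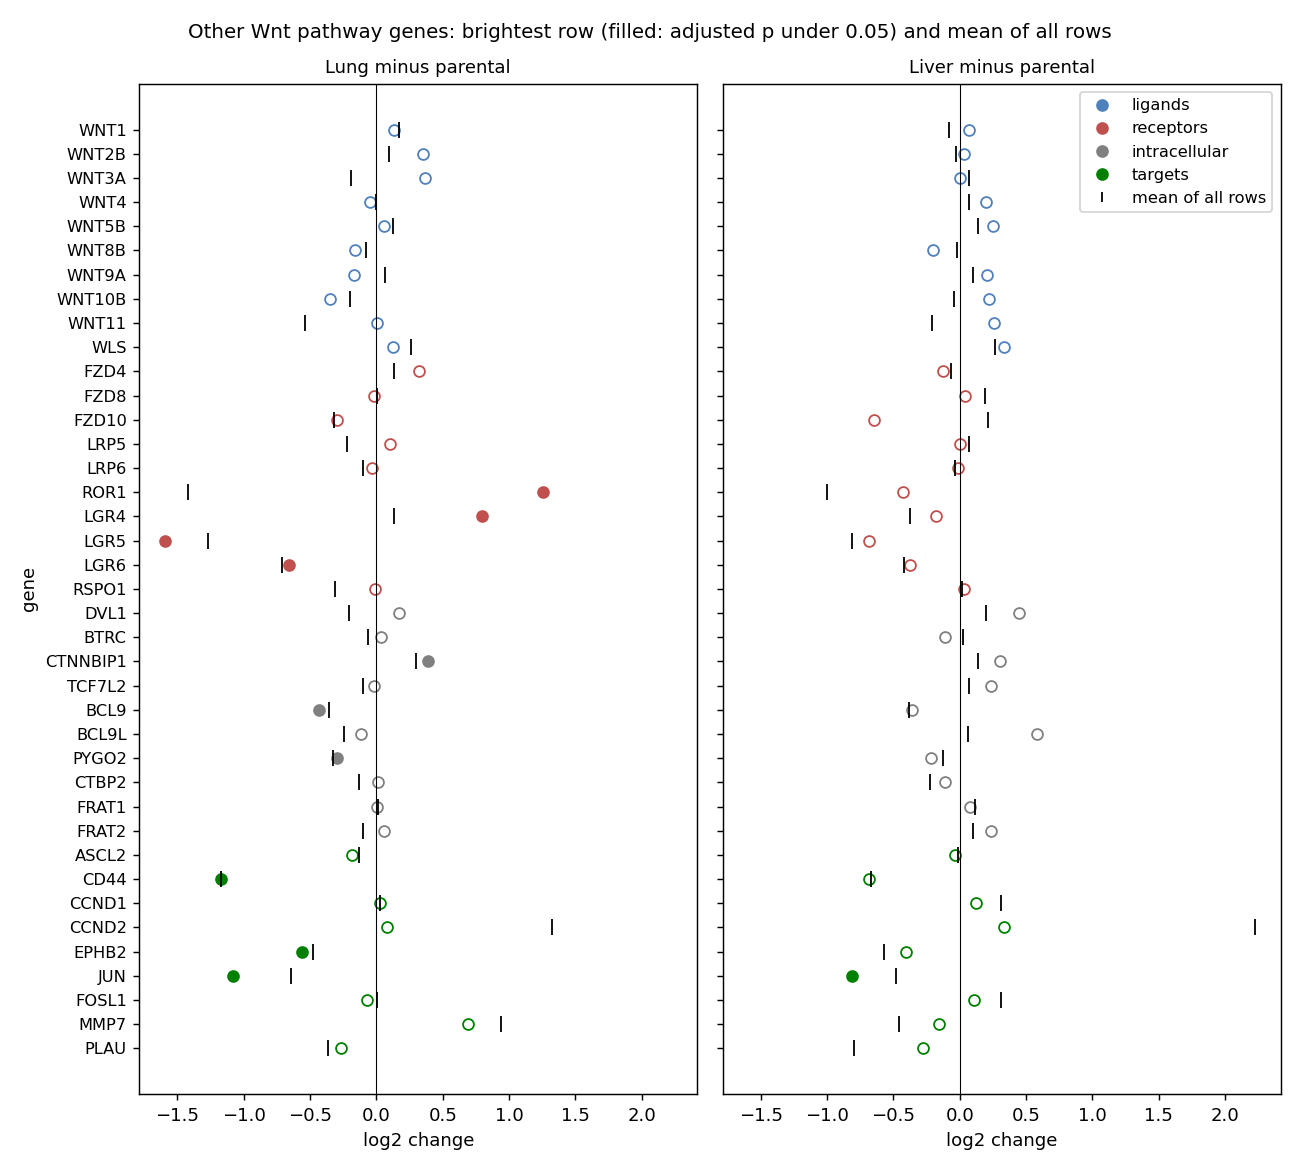
Log2 change of the 39 measured Wnt pathway genes in lung minus parental (left) and liver minus parental (right) comparisons, coloured by role; circles are the brightest row of a gene, filled where called at an adjusted p under 0.05, and ticks are the mean of all rows. LGR5 is drawn with the receptors. LGR5 (-1.59), CD44 (-1.17) and JUN (-1.08) lie lowest among the called genes in lung derivatives, and JUN (-0.82) is the called gene in liver derivatives.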

How the data were processed

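RNA of 10 cell samples was hybridised to 1-colour arrays, 3 of lung derivatives, 3 of liver derivatives and 4 of parental SW620 cells, grouped by the labels. The authors deposited log2 expression values, for which the submitters' processing notes name RMA and oligo, an R package. Their versions, the summary level and the genome build are not given in the sources used here. The values lay between 2.55 and 13.99, so no log was taken. No total count exists for an array, and the number of arrays limits the precision. Of 65535 rows, 56949 have a gene in the platform annotation and 54806 have exactly 1, which gave 4713 genes after 601 symbols were updated through the RefSeq gene table (GRCh38.p14). Promoter sequences were available for DKK1, WIF1 and SFRP5 and not for DKK3.

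Each row was fitted with limma 3.58.1 (R 4.3.3; lmFit, contrasts and eBayes, two-sided) over all 10 arrays with 1 coefficient per group and no covariate. Benjamini-Hochberg adjustment ran over the 56949 rows, or the 4713 gene means, of a comparison, and an adjusted p under 0.05 was a call. Adjusted p-values in all texts come from limma. No dim row was left out. The fit was tested on simulated data with known changes. The alternatives were quantile normalisation again, median centring, leaving out the dimmest 25% of rows, the median or brightest row of a gene, limma's trend option, only the groups compared, the array set or the replicate number as a term, and leaving out each array.

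All rows of the 4 antagonists are described. Of each Wnt pathway list up to 4 called members with the smallest adjusted p are named, and for each antagonist the 5 genes most like its mean and the 3 most like its most variable row. The members and lists were chosen with earlier results of these data known.

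The labels give no pairing of samples by replicate number. Same-numbered arrays of different groups had deviations from their group means that correlated at -0.12 to 0.04. Differently numbered arrays were not compared and the parental mean included array 4, so these values do not settle whether the numbers pair the samples. Parental arrays 1 to 4, and the arrays within each derivative, differed in their values and were each counted as 1 sample.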

Additional observations from a re-analysis of the deposited data

Results flagged for a closer look

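In the test for a sample far from the others of its group, run on 55 profiles of the 4 parental arrays, 2 profiles stood out, and chance gives about 1 in 20. DKK3 row 7938484 read 7.32 on parental array 4 against 5.66 to 5.89 on the other parental arrays, with a gap of 0.86 of the range. WIF1 row 7964732 read 6.66 on parental array 4 against 5.79 to 5.83, with a gap of 0.953 of the range. Neither row was called in a comparison.

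The changes of the derivatives from the same parental arrays differed between lung and liver in the limma test of lung minus liver. Among the antagonists these were SFRP5 rows 7935530 (-0.89) and 7935531 (-0.65), the SFRP5 gene mean (-0.36), DKK3 rows 7938482 (1.32), 7938483 (-0.84) and 7946672 (-0.59), and WIF1 row 7964727 (1.44). Among the pathway genes they were the brightest rows of WNT10B (-0.58), ROR1 (1.68), LGR4 (0.98), LGR5 (-0.91) and BCL9L (-0.70). With the array set as a term none of these was called, and their cause was not tested.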

How the results depend on the processing

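The DKK1 gene mean stayed higher and called in all 19 alternatives for liver derivatives (1.28 to 1.77 with 1 array left out, adjusted p up to 0.0423) and in 18 of 19 for lung derivatives (1.19 to 1.68). The exception was the array set as a term, which leaves 1 parental array for the lung comparison (0.43, adjusted p = 0.248). SFRP5 in lung derivatives lost its call against parental cells with quantile normalisation (-0.23, adjusted p = 0.0530), median centring (-0.23, adjusted p = 0.0527), the median of rows (-0.37, adjusted p = 0.0798), only the 2 groups compared (-0.28, adjusted p = 0.0579) and the array set (-0.0825, adjusted p = 0.594). With 1 array left out it ranged from -0.35 to -0.24. Against liver derivatives it lost its call with the array set (-0.0949, adjusted p = 0.798), and with 1 array left out it ranged from -0.39 to -0.33.

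Uncalled values changed sign in places. WIF1 in liver derivatives was -0.0559 without the dimmest rows, -0.0930 by the brightest row and -0.0335 to 0.10 with 1 array left out, and in lung derivatives -0.0279 by the brightest row. DKK3 in lung derivatives was -0.0273 by the median of rows and -0.33 by the brightest row. In lung minus liver, DKK3 was 0.00903 with quantile normalisation, 0.0265 with median centring, -0.0611 to 0.0250 with 1 array left out, and -0.59 and called by the brightest row (adjusted p = 0.0471). There WIF1 was -0.0159 with the array set, and DKK1 was -1.34 with the array set (adjusted p = 0.112) and ranged from -0.24 to 0.04 with 1 array left out.

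Of all rows, 1252 were called in liver derivatives, 527 to 1464 with 1 array left out. In lung derivatives 7483 were called, 2519 to 16222 with 1 array left out, 2120 with only the 2 groups and 635 with the array set. Between lung and liver derivatives 7194 were called, 0 to 14167 with 1 array left out and 36 with the array set. The counts of 0 came without liver array 2 or 3, where 14430 and 14800 rows had an unadjusted p under 0.05. Pathway genes called numbered 1 in liver derivatives (10 by the mean of rows, 2 with the array set), 10 in lung derivatives (2 with the array set) and 5 between lung and liver derivatives (9 by the mean of rows, 0 with the array set). With only the 2 groups compared, 0 DKK1, 0 DKK3 and 0 SFRP5 rows were called in lung derivatives, and without the dimmest rows 0 DKK3 rows were. Pathway genes were not tried with single arrays left out.

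With the replicate number as a block, which drops parental array 4 because it alone carries its number, 786 rows were called in liver and 12420 in lung derivatives. Whether the numbers pair the samples was not settled. Under the block the DKK1 changes were 1.77 in liver and 1.68 in lung derivatives and the SFRP5 changes -0.35 against parental cells and -0.36 against liver derivatives, all called, and no gene mean of the 4 antagonists changed its call. The causes of these shifts were not tested. For dim rows, which include 8 of 10 WIF1 rows, signal over background limits what can be seen.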

Other observations

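Parental array 4 lay above parental arrays 1 to 3 in 6 of 7 DKK1 rows and below them in 1. It lay below them in 4 of 5 SFRP5 rows and above them in 1. For DKK3 it lay above them in 5 of 17 rows and below them in 9, and for WIF1 above them in 4 of 10 and below them in 3. The DKK1 gene mean was 8.06 on array 4 against a mean of 6.81 on parental arrays 1 to 3, and the SFRP5 gene mean on array 4 was lower than on arrays 1 to 3 by a log2 difference of -0.26. These values describe 1 array and carry no test.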
